A study of Mus musculus with 7 samples.

Results

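The genes described here are 36 endothelial and angiogenesis genes, chosen by symbol, of 22173 genes in a deposited table of RNA levels in mouse spleen. Of the 36, 14 are classed as pan-endothelial and 6 as genes of the endothelium of sinusoids. The other 16 encode ligands and receptors of angiogenesis, the growth of vessels from existing ones. The pan-endothelial class is broad: Sox17 is known from arteries, Plvap from fenestrated vessels, and Vwf and Mmrn1 are shared with platelets. All 36 had reads in every library. In the PBS group, 3 libraries came from spleens treated with phosphate-buffered saline. In the sHA-X group, 4 libraries came from spleens remodelled by 4 injections of a biomaterial that the labels name sHA-X. Both groups had then received hepatocytes, the main cells of the liver, into the spleen, and were taken 30 days later. Strain, genotype and age of the mice are not given in the sources used here. Whether each library came from 1 animal is not given either, so p-values measure the spread between libraries, which may be technical. The study's question was whether a remodelled spleen can house liver tissue, and the comparison here asks how the vessel genes of such a spleen differed from those of a PBS spleen.

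Endothelial cells line all vessels and are held together by adhesion proteins such as VE-cadherin. Vascular endothelial growth factors (VEGF) act on them through receptor tyrosine kinases, angiopoietins set vessel stability through the receptor Tie2, and Notch signalling and the apelin receptor shape sprouting. Sinusoids of spleen and liver are wide, leaky vessels whose endothelium carries scavenger receptors and takes up material from blood.

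Levels are FPKM, fragments scaled to transcript length and library size, so levels of different genes can be compared. A change is the difference sHA-X minus PBS in log2(FPKM + 1), tested by limma over 11920 genes with a mean of at least 1 FPKM. Genes with a Benjamini-Hochberg adjusted p under 0.05 are said to have risen or fallen. Libraries held between 29516830 and 37108844 reads, recovered from the FPKM steps. PBS replicate 2 carried pancreatic acinar RNA (a summed 862 FPKM of 8 markers, and under 1 FPKM in each other library). The 7 skeletal muscle markers summed to 184 FPKM in sHA-X replicate 2 and to at most 16.2 FPKM elsewhere. The 9 hepatocyte markers reached 787 and 827 FPKM in sHA-X replicates 3 and 4, against 24.6 FPKM or less in the other libraries. B cell and macrophage markers of spleen were abundant in all 7.

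Of the 36 genes, 34 were tested, all with a PBS mean of at least 1 FPKM. Placental growth factor (Pgf) and apelin (Apln) were below that mean. The members moved in both directions: 4 rose, 4 fell and 26 did not pass. The sinusoidal lectin gene Clec4g and the scavenger receptor gene Stab1 rose most, and the apelin receptor gene Aplnr fell most. Over all genes tested, 9.3% rose and 5.03% fell (1108 and 600 genes). With quantile normalization these counts were 770 and 976, and those of the members were 3 and 6. The members' median change was -0.02, beside 0.03 for all genes. In 6 tested members every sHA-X library lay above every PBS library, and in 7 every one lay below, beside 17.2% and 11.5% of all genes. The count of members that fell was 1 without PBS replicate 1 and 2 without sHA-X replicate 3. With replicate 2 of both groups left out, 3 rose and 3 fell. Because whole spleens were measured, fewer cells of a type and less RNA per cell cannot be told apart.

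**Figure D1:**
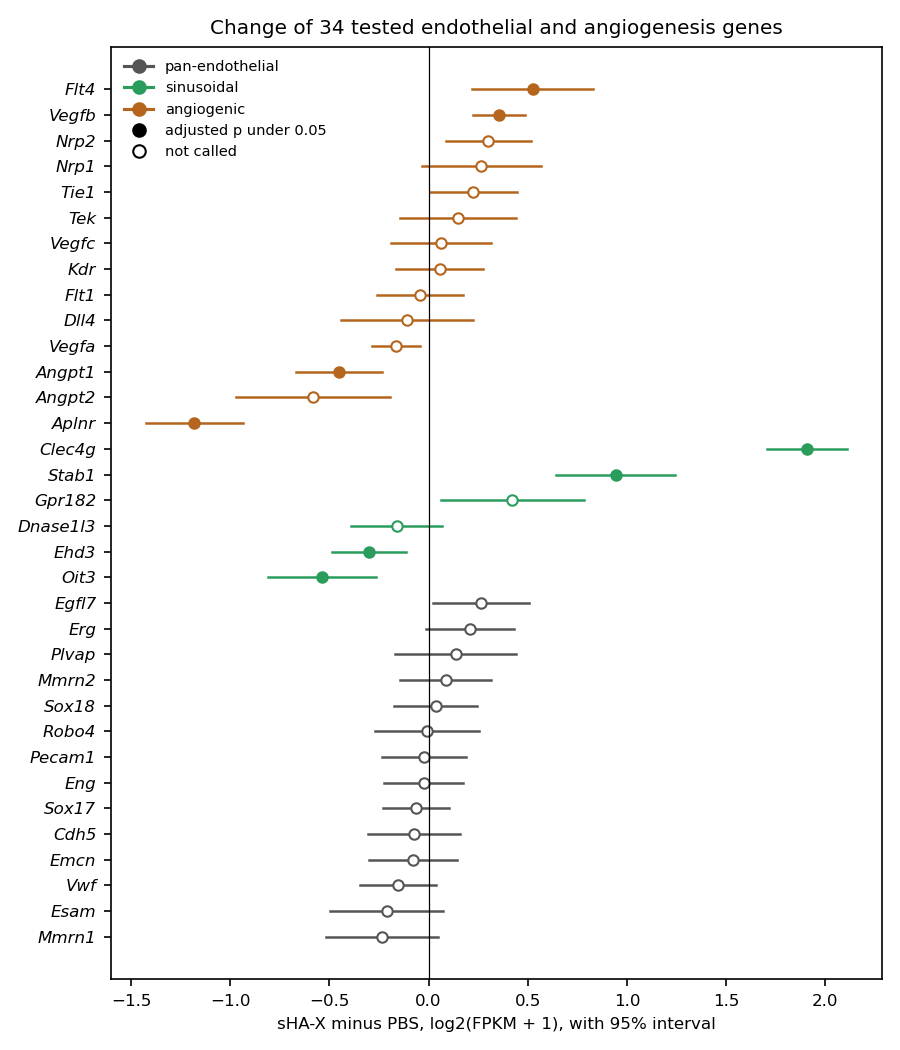
Difference sHA-X minus PBS on the log2(FPKM + 1) scale (x axis) of the 34 tested genes (y axis), with 95% intervals from limma. Colours mark the 3 classes and filled points the 8 genes at an adjusted p under 0.05. The pan-endothelial genes lie near 0, and Clec4g and Aplnr lie farthest out.

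Sinusoidal genes split into those that rose, those that fell and those that did not pass. Of the 6, Clec4g and Stab1 rose, Oit3 and Ehd3 fell, and Gpr182 and Dnase1l3 did not pass.

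Clec4g encodes LSECtin, a C-type lectin of liver and lymph node sinusoidal endothelium. It stands on chromosome 8, 3707066 to 3720695 (NCBI gene 75863, GRCm38), and overlaps the lncRNA gene Gm16553. The PBS libraries, in the order of their replicate numbers, held 5.44, 5.50 and 6.61 FPKM, and the sHA-X libraries 25.7, 23.4, 27.2 and 22.5 FPKM, an order kept below. All 4 sHA-X libraries stood far above the PBS libraries and close to each other. The mean rose 4.22-fold, from 5.85 ± 0.66 (SD, n = 3) to 24.7 ± 2.15 FPKM (SD, n = 4). The log2 change was 1.91 with SE 0.09 (limma adjusted p = 3.7e-05), the 2nd smallest p among the 11920 genes. Between 216 and 1122 reads lay behind each value. Clec4g was as high in sHA-X replicates 1 and 2, where hepatocyte markers summed to 5.19 and 24.6 FPKM, as in replicates 3 and 4. Whether the injected cells had a part in the rise of Clec4g was not tested.

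Stab1 encodes stabilin-1, a scavenger receptor of sinusoidal endothelium that macrophages also express. It stands on chromosome 14, 31139017 to 31168651 (NCBI gene 192187), where it overlaps Nt5dc2. Its level was 4.08, 3.35 and 4.11 FPKM in the PBS libraries and 10.8, 7.51, 7.98 and 7.24 FPKM in those of sHA-X. The groups did not overlap, and sHA-X replicate 1 was the highest. The mean rose 2.18-fold (log2 change 0.94 with SE 0.13, limma adjusted p = 0.0033). Nt5dc2 itself averaged 8.82 FPKM in PBS spleens, against 9.90 FPKM in sHA-X spleens. Macrophage markers rose beside Stab1, 10 of 13 by limma, and summed to between 1476 and 1896 FPKM among PBS libraries and between 2741 and 2941 FPKM among sHA-X libraries. None of the 13 was at 0, and their part in the rise of Stab1 was not tested.

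The promoters of the 4 members that rose are shown because these genes moved in the same direction. Each line gives the 250 bases before the transcription start of the promoter table, from RefSeq on GRCm38.p6, 5′ to 3′ on the gene's strand. For Clec4g and Stab1 that start lies inside the gene's annotated span, so that 44 and 10 of the 250 bases lie within it. Capitals mark matches on either strand to CNGGAAG, a core bound by ETS factors such as ERG, and to ACAAT, a core bound by SOX factors such as SOX17 and SOX18.
Clec4g (chr8:3720652-3720901, minus strand): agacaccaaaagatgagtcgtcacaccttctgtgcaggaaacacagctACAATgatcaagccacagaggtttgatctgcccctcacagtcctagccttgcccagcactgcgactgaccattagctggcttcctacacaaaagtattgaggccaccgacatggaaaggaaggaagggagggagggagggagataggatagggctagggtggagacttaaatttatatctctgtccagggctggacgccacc
Stab1 (chr14:31168642-31168891, minus strand): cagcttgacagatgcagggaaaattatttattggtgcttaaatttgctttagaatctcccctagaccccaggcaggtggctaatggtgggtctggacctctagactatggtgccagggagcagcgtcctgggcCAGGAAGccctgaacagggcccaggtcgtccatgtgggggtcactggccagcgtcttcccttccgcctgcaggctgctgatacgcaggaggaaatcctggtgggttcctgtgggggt
Flt4 (chr11:49609429-49609678, plus strand): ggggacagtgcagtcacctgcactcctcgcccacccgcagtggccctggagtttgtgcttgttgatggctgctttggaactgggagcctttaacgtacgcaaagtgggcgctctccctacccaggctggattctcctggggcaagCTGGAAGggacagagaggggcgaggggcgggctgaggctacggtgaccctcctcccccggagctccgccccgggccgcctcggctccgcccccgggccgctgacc
Vegfb (chr19:6987652-6987901, minus strand): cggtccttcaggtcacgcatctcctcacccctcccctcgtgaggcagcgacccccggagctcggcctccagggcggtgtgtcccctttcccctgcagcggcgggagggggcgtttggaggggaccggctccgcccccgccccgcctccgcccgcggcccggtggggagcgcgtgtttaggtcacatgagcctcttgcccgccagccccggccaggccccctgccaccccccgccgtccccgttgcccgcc
Clec4g held 1 SOX core, Stab1 and Flt4 held 1 ETS core each, and these letters were not found in the window of Vegfb. Of all 32851 promoter windows, 26.6% held the ETS core and 27.7% the SOX core. Of the 22 members with an entry, 11 and 6 did. A match describes the letters of the window and does not show that a factor binds there.

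Oit3 encodes an extracellular zona pellucida domain protein known from liver, and stands on chromosome 10, 59422960 to 59441779 (NCBI gene 18302), where it overlaps Gm36318. It fell from 2.92, 2.56 and 3.49 FPKM in PBS to 1.67, 1.43, 1.70 and 2.21 FPKM in sHA-X. No sHA-X library reached the PBS range. The PBS mean was 1.71 times the sHA-X mean (log2 change -0.54 with SE 0.12, limma adjusted p = 0.021). Oit3 no longer passed when replicate 1 of either group or replicate 3 of sHA-X was left out (p up to 0.077 after adjustment).

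Ehd3 encodes an endocytic recycling protein and stands on chromosome 17, 73804841 to 73832093 (NCBI gene 57440). It was 12.6, 10.9 and 14.0 FPKM in the PBS libraries and 9.86, 9.58, 9.84 and 10.3 FPKM in those of sHA-X. The groups lay next to each other without overlap, and the sHA-X libraries were within 1 FPKM of each other. The log2 change was -0.30 with SE 0.08 (limma adjusted p = 0.045). This call was lost without any single library other than PBS replicate 2, with adjusted p up to 0.15, and without the filter (0.067) or the variance trend (0.055).

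Gpr182, an atypical chemokine receptor of sinusoidal and lymphatic endothelium, was 19.96, 13.1 and 20.9 FPKM in PBS spleens, against 27.0, 24.0, 23.1 and 22.0 FPKM in sHA-X spleens. All sHA-X libraries were above PBS, and PBS replicate 2 stood low. The test was not passed (log2 change 0.42, 95% interval 0.06 to 0.78, adjusted p = 0.11 by limma). Gpr182 also did not pass with any single library left out (adjusted p between 0.062 and 0.21 by limma). Dnase1l3 encodes a secreted nuclease that macrophages and dendritic cells also make. It was the most abundant of the 6 in every library, at 40.0, 41.0 and 53.0 FPKM among PBS libraries and 41.3, 40.5, 36.4 and 40.2 FPKM among sHA-X libraries. Its ranges overlapped (log2 change -0.16, 95% interval -0.39 to 0.07, adjusted p = 0.33 by limma).

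**Figure D2:**
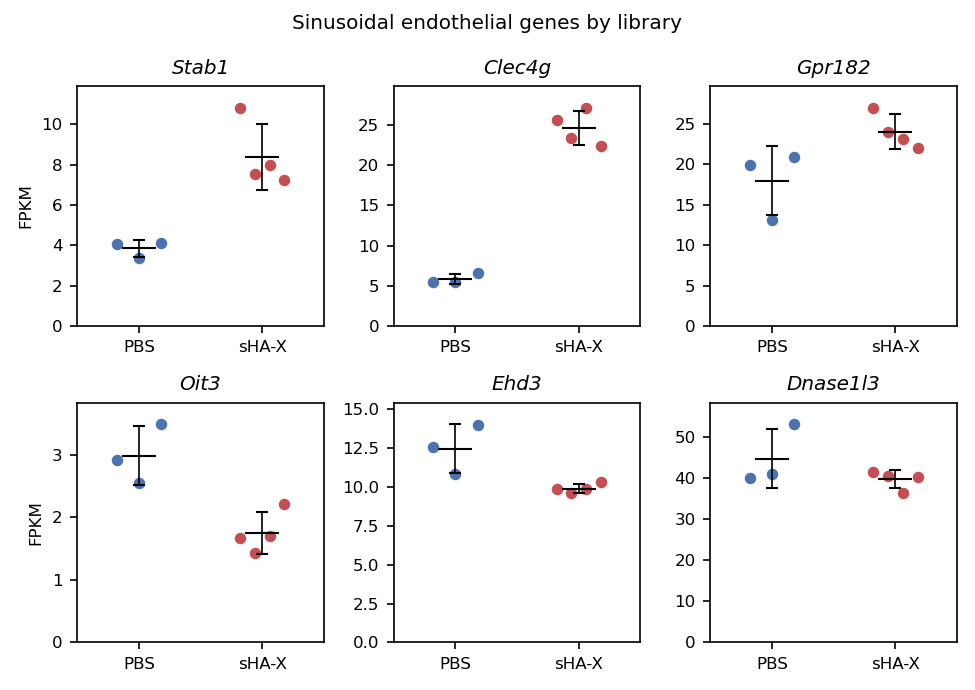
FPKM (y axis, from 0) of the 6 sinusoidal genes by library. Points are libraries of PBS (blue, n = 3) and sHA-X (red, n = 4), and bars are the mean and SD. Clec4g lies at 22.5 FPKM or more in sHA-X and at 6.61 FPKM or less in PBS, and Oit3 and Ehd3 lie lower in sHA-X.

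Among 13 other genes known from sinusoids, 10 had a mean of at least 1 FPKM, but Lyve1 and Wnt2 only through their sHA-X libraries. Of the 8 with a PBS mean of at least 1 FPKM, 4 rose and none fell by limma (1 fell at an unadjusted p under 0.05, Madcam1), and their median change was 0.25. Among all genes tested, 9.3% rose and 5.03% fell. Lyve1, the hyaluronan receptor of lymphatic and sinusoidal endothelium and of some macrophages, was 0.393, 0.0720 and 0.367 FPKM in the PBS libraries and 8.52, 4.32, 4.77 and 3.56 FPKM in those of sHA-X. The sHA-X libraries stood far above PBS, but since the gene entered the test through them, its test is given no weight. The mannose receptor gene Mrc1, also a macrophage gene, averaged 38.8 ± 4.89 FPKM in PBS spleens, against 62.3 ± 4.87 FPKM in sHA-X spleens. Fcgr2b, the inhibitory Fc receptor of B cells and sinusoidal endothelium, averaged 44.3 and 58.6 FPKM. Of macrophage markers 10 of 13 rose, and of B cell markers 6 of 7 fell. Their part in the levels of Mrc1 and Fcgr2b was not tested. The coagulation factor VIII gene F8 averaged 1.76 and 2.58 FPKM, and Bmp2, a regulator of iron balance, 5.71 and 7.47 FPKM. Stab2, the close relative of Stab1, was 19.0, 14.9 and 20.3 FPKM among PBS libraries and 19.6, 19.1, 17.1 and 19.1 FPKM among sHA-X libraries (log2 change 0.06, 95% interval -0.17 to 0.29, adjusted p = 0.75 by limma). Stab1 and Stab2 thus had different results in the same libraries, and the difference between them was not tested. Leaving out PBS replicate 1 ended the calls of Fcgr2b, F8 and Bmp2 (adjusted p between 0.054 and 0.094). Fcgr2b and Bmp2 also failed when PBS replicate 2 was left out (0.052 and 0.11), and Bmp2 when sHA-X replicate 1, 2 or 4 was (up to 0.096). With quantile normalization F8 and Bmp2 did not pass (0.065 and 0.081). Without both second libraries Fcgr2b, F8 and Bmp2 did not pass. Of all 10 genes, Lyve1 and Wnt2 included, 5 rose, 2 without PBS replicate 1 and 3 without PBS replicate 2.

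None of the 14 pan-endothelial genes passed the test by limma, and none did by voom on recovered reads. Only Egfl7 had an unadjusted p under 0.05, so the count at that level was 1 gene. Their summed level was 272, 245 and 313 FPKM in the PBS libraries and 314, 284, 281 and 258 FPKM in those of sHA-X, with overlapping ranges. Their changes lay between -0.24 and 0.27, and the 95% intervals of all 14 together ran from -0.52 to 0.51. Differences as large as a gene's own interval allows are not excluded with 3 and 4 libraries. Whole spleens were measured, and the part of blood cells and macrophages in these levels was not tested. Of their markers, 11 of 13 for platelets and megakaryocytes and 6 of 7 for B cells fell, and 10 of 13 for macrophages rose.

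Among adhesion and junction genes, Pecam1 encodes the adhesion molecule CD31. It was 58.5, 52.2 and 68.8 FPKM in PBS spleens, against 62.3, 58.2, 54.8 and 59.2 FPKM in sHA-X spleens (log2 change -0.02, 95% interval -0.23 to 0.19, adjusted p = 0.90 by limma). Cdh5, which encodes VE-cadherin, was 18.1, 15.1 and 19.2 FPKM among PBS libraries and 19.0, 16.5, 15.2 and 15.5 FPKM among sHA-X libraries (log2 change -0.07, 95% interval -0.30 to 0.16, adjusted p = 0.68). Both genes overlapped fully between the groups. Plvap, which forms the diaphragms of fenestrated endothelium, was the most abundant of the 36 genes in each library, at 82.5, 80.6 and 100.99 FPKM in the PBS libraries and 116, 91.0, 102 and 79.8 FPKM in those of sHA-X. Eng encodes endoglin, a co-receptor for TGF-beta family ligands, the factor in the study's title. It averaged 33.0 ± 3.23 FPKM in PBS spleens, against 32.4 ± 2.63 FPKM in sHA-X spleens. Esam, a tight junction molecule, averaged 13.9 and 11.8 FPKM, and Egfl7, an endothelial matrix protein, 19.0 and 22.9 FPKM. The guidance receptor gene Robo4 averaged 2.81 and 2.79 FPKM, the matrix protein gene Mmrn2 7.99 and 8.52 FPKM, and the sialomucin gene Emcn 1.70 and 1.56 FPKM.

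Of the 3 transcription factor genes, none passed. Sox17, a factor of arterial endothelium, was 1.63, 1.59 and 1.53 FPKM among PBS libraries and 1.38, 1.51, 1.52 and 1.48 FPKM among sHA-X libraries. The groups lay side by side without overlap, the PBS libraries higher (adjusted p = 0.61 by limma). Erg, an ETS factor of endothelial identity, did not overlap in the other direction, at 6.27, 4.74 and 5.97 FPKM in the PBS libraries and 6.71, 6.29, 6.29 and 7.40 FPKM in those of sHA-X (adjusted p = 0.20). Sox18 averaged 12.6 and 12.8 FPKM. Von Willebrand factor (Vwf) and multimerin-1 (Mmrn1) are stored by platelets and megakaryocytes as well as by endothelium, and Mmrn1 also marks lymphatic vessels. Vwf averaged 5.90 ± 0.42 and 5.21 ± 0.48 FPKM, and Mmrn1 6.93 ± 0.64 and 5.78 ± 1.03 FPKM, neither past the test (adjusted p = 0.26 and 0.25 by limma). Of 13 platelet and megakaryocyte markers 11 fell, and their sum was between 518 and 650 FPKM in PBS spleens, against between 365 and 446 FPKM in sHA-X spleens. Their part in the levels of Vwf and Mmrn1 was not tested.

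**Figure D3:**
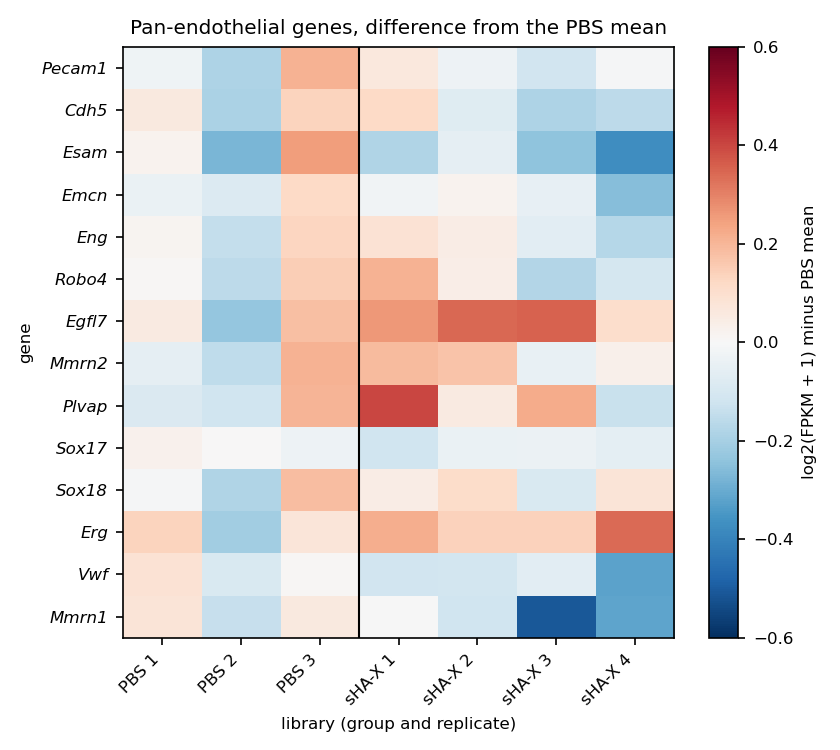
Difference of each library from the PBS mean on the log2(FPKM + 1) scale (colour, red higher and blue lower) for the 14 pan-endothelial genes (rows) in 7 libraries (columns, the line separates the groups). PBS replicate 2 is the lowest PBS library in 13 of the 14 genes and sHA-X replicates 3 and 4 are lowest for Mmrn1.

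Over all 36 genes, PBS replicate 2 was the lowest PBS library for 30. That library also held the pancreatic RNA, whose part in these levels was not tested. Pan-endothelial genes again gave no call without both second libraries.

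Of 39 other endothelial genes, listed with earlier results of these data known, 36 were tested. Of these, 6 rose, 4 fell and 26 did not pass, where 9.3% of all genes tested rose and 5.03% fell. Their median change was 0.04. Cldn5, the main claudin of endothelial tight junctions, was 30.4, 25.5 and 30.3 FPKM among PBS libraries and 41.3, 43.7, 40.7 and 38.9 FPKM among sHA-X libraries (log2 change 0.51 with SE 0.08, limma adjusted p = 0.0044). Acvrl1, which encodes the endothelial BMP receptor ALK1, averaged 8.92 ± 1.06 and 11.7 ± 0.75 FPKM (adjusted p = 0.027). Klf2, a flow-induced factor that lymphocytes also express, fell from 139 ± 15.3 to 92.3 ± 9.77 FPKM. Icam2, Fli1 and Hhex, which blood cells also express, fell to 22.9, 19.5 and 28.1 FPKM from 31.6, 25.1 and 36.2 FPKM. B cell markers fell beside them, 6 of 7, and summed to between 1634 and 1954 FPKM in the PBS libraries and between 1111 and 1281 FPKM in those of sHA-X. Their part in these 4 falls was not tested. Leaving out PBS replicate 1 ended the call of Fli1 (adjusted p = 0.067). Acvrl1 no longer passed when replicate 1 or 2 of either group or replicate 4 of sHA-X was left out (p up to 0.082 after adjustment). Nor did it pass without both second libraries. Only 1 or 2 genes of the list rose when any library other than PBS replicate 3 was left out.

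Of the 4 VEGF ligand genes among the members, Vegfb rose, Vegfa and Vegfc did not pass and Pgf was not tested. Vegfb binds the receptor VEGFR1, and its gene stands on chromosome 19, 6982472 to 6987651 (NCBI gene 22340). It was 10.2, 10.01 and 10.8 FPKM in PBS spleens, against 13.1, 13.8, 14.2 and 12.9 FPKM in sHA-X spleens. The libraries of each group lay close together and the groups did not overlap. The mean rose 1.31-fold (log2 change 0.36 with SE 0.06, limma adjusted p = 0.0063). Vegfb still passed when any single library was left out (p up to 0.037 after adjustment), and without both second libraries the adjusted p was 0.056.

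Vegfa, the main inducer of vessel growth, was 11.8, 11.0 and 11.5 FPKM among PBS libraries and 9.99, 10.3, 10.03 and 10.1 FPKM among sHA-X libraries. Every sHA-X library was below every PBS library, by a small margin (log2 change -0.16, 95% interval -0.28 to -0.04, adjusted p = 0.078 by limma). With median-ratio scaling or quantile normalization the adjusted p was 0.041 or 0.045. Vegfc, the lymphatic ligand, averaged 5.27 ± 0.86 and 5.53 ± 0.61 FPKM (adjusted p = 0.76). Pgf was at 0.221, 0.204 and 0.177 FPKM in the PBS libraries and 0.316, 0.581, 0.266 and 0.159 FPKM in those of sHA-X, which is 10 to 29 reads per library. Its ranges overlapped, and without the filter its adjusted p was 0.44 by limma.

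Of the receptors, Flt4 rose and the others did not pass. Flt4 encodes VEGFR3, the receptor of Vegfc and Vegfd on lymphatic and sinusoidal endothelium (chromosome 11, 49609679 to 49652739, NCBI gene 14257). It was 3.23, 3.40 and 3.30 FPKM in PBS spleens, against 6.89, 4.14, 5.33 and 4.77 FPKM in sHA-X spleens. All sHA-X libraries were above PBS and spread widely, with replicate 1 the highest. The mean rose 1.60-fold (log2 change 0.53 with SE 0.13, limma adjusted p = 0.035). Flt4 no longer passed when 1 PBS library, whichever it was, or sHA-X replicate 3 or 4 was left out (p up to 0.12 after adjustment), nor with quantile normalization (0.078) or without the filter (0.062).

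Kdr encodes VEGFR2, the main signalling receptor of VEGF. It was 7.74, 6.29 and 8.66 FPKM among PBS libraries and 8.21, 7.56, 7.72 and 7.88 FPKM among sHA-X libraries (log2 change 0.06, 95% interval -0.16 to 0.27, adjusted p = 0.75 by limma). Flt1, the VEGFR1 gene, averaged 2.93 ± 0.35 and 2.81 ± 0.31 FPKM (log2 change -0.04, 95% interval -0.26 to 0.17). Both receptors overlapped between the groups. Nrp2, a co-receptor of lymphatic VEGF signalling, was 3.98, 3.75 and 4.79 FPKM in the PBS libraries and 5.34, 5.92, 4.78 and 5.42 FPKM in those of sHA-X. PBS replicate 3 and sHA-X replicate 3 met at the border (log2 change 0.30, 95% interval 0.09 to 0.52, adjusted p = 0.067). The adjusted p was 0.026 without PBS replicate 3 and 0.046 with voom on recovered reads. Nrp1 was 8.03, 6.84 and 8.87 FPKM in PBS spleens, against 8.73, 11.2, 7.97 and 11.2 FPKM in sHA-X spleens, higher than PBS in sHA-X replicates 2 and 4 (adjusted p = 0.22). Of 7 markers of plasmacytoid dendritic cells, 1 rose and 2 fell, and the part of such cells in the level of Nrp1 was not tested.

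**Figure D4:**
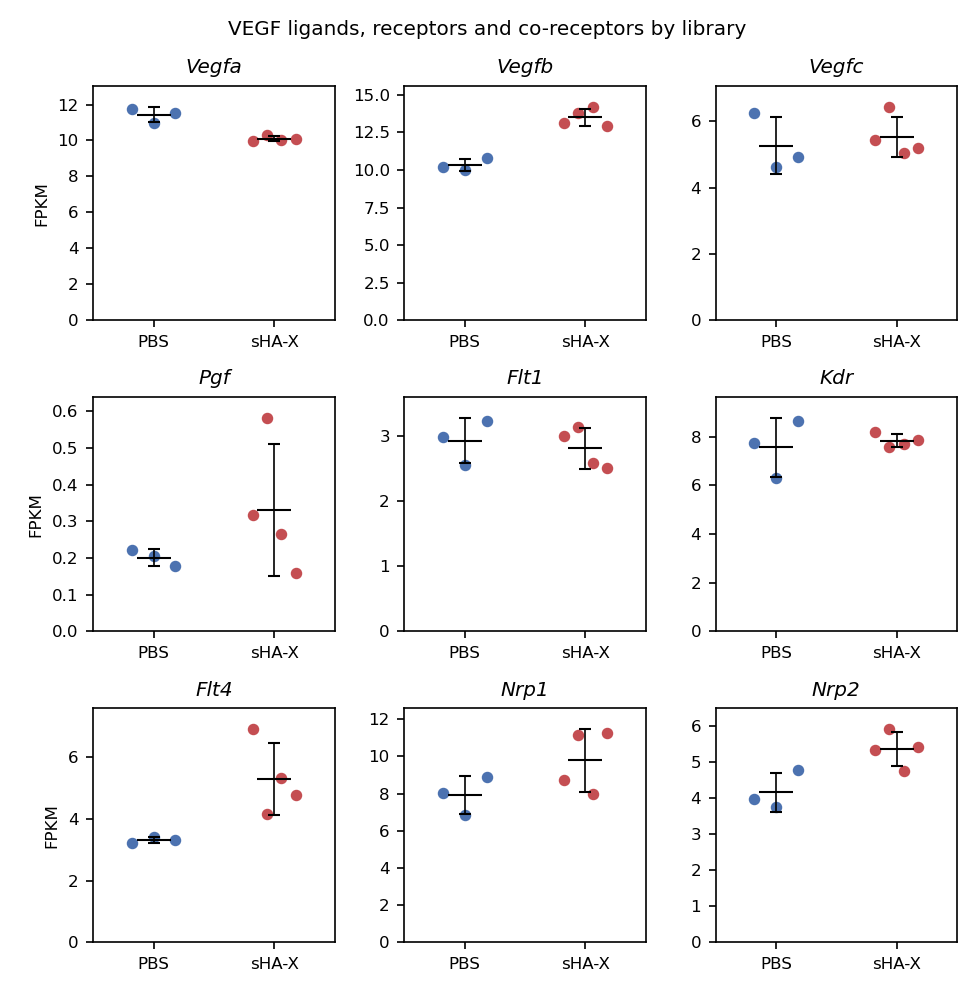
FPKM (y axis, from 0) of VEGF ligands, receptors and co-receptors by library. Points are libraries of PBS (blue, n = 3) and sHA-X (red, n = 4), and bars are the mean and SD. Vegfb and Flt4 lie higher in sHA-X without overlap, and Kdr and Flt1 overlap.

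Angpt1 and Angpt2, the angiopoietin ligands among the members, stood lower in sHA-X, and the fall passed the test for Angpt1 only. Angpt4, another ligand of Tie2, was below the filter and went the other way, at 0.0133, 0.0803 and 0.192 FPKM in PBS and 0.831, 0.303, 0.972 and 0.723 FPKM in sHA-X without overlap. It was chosen after its values were seen and was not tested. Angpt1 encodes the agonist of Tie2 that mural and stromal cells and megakaryocytes make (chromosome 15, 42424667 to 42676977, NCBI gene 11600, overlapping Gm41313). It was 8.85, 7.86 and 7.50 FPKM among PBS libraries and 6.49, 5.86, 5.09 and 5.10 FPKM among sHA-X libraries. No sHA-X library reached the PBS range (log2 change -0.45 with SE 0.09, limma adjusted p = 0.017). Leaving out PBS replicate 1 ended the call (adjusted p = 0.081), as did leaving out both second libraries (0.070). Platelet and megakaryocyte markers fell beside it, as given above, and 2 of 9 tested mural markers rose and none fell by limma (1 at an unadjusted p under 0.05, Notch3). Their part in the fall of Angpt1 was not tested.

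Angpt2, a ligand of Tie2 that sprouting endothelium releases and that can oppose Angpt1, was 6.29, 4.53 and 5.44 FPKM in the PBS libraries and 4.26, 3.15, 3.65 and 2.24 FPKM in those of sHA-X. Its gene overlaps Mcph1, which averaged 1.37 and 1.44 FPKM. The groups did not overlap for Angpt2 but spread more (log2 change -0.58, 95% interval -0.97 to -0.20, adjusted p = 0.055 by limma). The adjusted p was 0.044 with quantile normalization, 0.045 with voom on recovered reads and 0.039 without sHA-X replicate 1, and between 0.050 and 0.19 in the other fits. The ratio of Angpt2 to Angpt1 in the PBS libraries was 0.710, 0.576 and 0.725. It was 0.656, 0.538, 0.718 and 0.438 in those of sHA-X. These ratios overlapped (log2 difference -0.21, two-sided exact permutation test over 35 splits, p = 0.37, smallest possible 0.029).

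Neither receptor passed. Tek, the Tie2 gene, was 4.99, 3.57 and 5.11 FPKM in PBS spleens, against 4.68, 6.07, 4.51 and 5.30 FPKM in sHA-X spleens (log2 change 0.15, 95% interval -0.14 to 0.44, adjusted p = 0.49 by limma). Tie1, its partner without a ligand of its own, averaged 12.6 ± 1.91 and 14.9 ± 0.76 FPKM (log2 change 0.23, 95% interval 0.01 to 0.45, adjusted p = 0.16).

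Aplnr had the largest fall of the 36 genes. It encodes the apelin receptor of venous and sprouting endothelium and stands on chromosome 2, 85136360 to 85139923 (NCBI gene 23796), with no overlapping gene. Its level was 4.47, 3.28 and 3.82 FPKM among PBS libraries and 0.967, 1.36, 1.16 and 1.06 FPKM among sHA-X libraries, from 374 to 512 and from 110 to 144 reads. Every sHA-X library was far below every PBS library. The PBS mean was 3.39 times the sHA-X mean (log2 change -1.18 with SE 0.11, limma adjusted p = 0.00065). It was the 30th lowest log2 change among the 11920 genes. The call held in all 16 alternative fits, with adjusted p up to 0.030.

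Apln, the ligand gene, was 0.336, 0.209 and 0.218 FPKM in the PBS libraries and 1.42, 0.450, 0.399 and 0.358 FPKM in those of sHA-X. All sHA-X libraries were above PBS, 3 of them narrowly, and replicate 1 stood apart with 143 reads against 42 in each of the other 3. Without the filter its adjusted p was 0.33 by limma. Dll4, the Notch ligand of tip cells, was 2.33, 1.63 and 2.80 FPKM in PBS spleens, against 2.47, 2.02, 1.92 and 1.57 FPKM in sHA-X spleens, with overlap (adjusted p = 0.67).

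**Figure D5:**
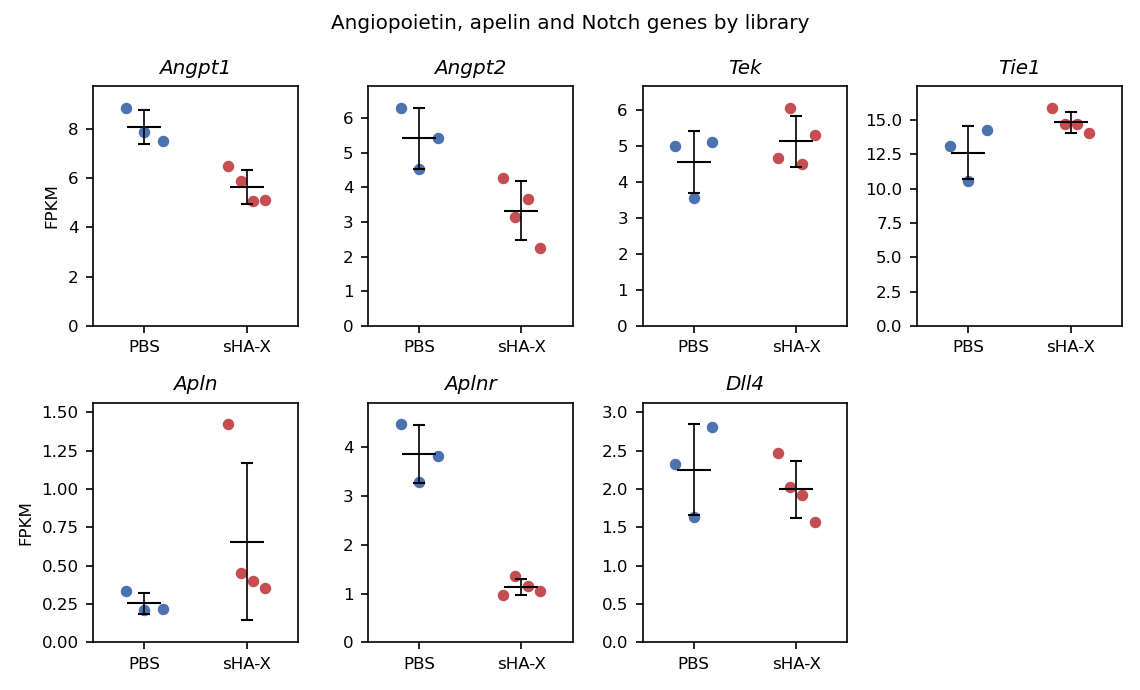
FPKM (y axis, from 0) of angiopoietin, apelin and Notch genes by library. Points are libraries of PBS (blue, n = 3) and sHA-X (red, n = 4), and bars are the mean and SD. Aplnr lies at 1.36 FPKM or less in sHA-X and at 3.28 FPKM or more in PBS, and 1 sHA-X library of Apln stands at 1.42 FPKM.

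Of 51 other genes of these pathways 42 were tested, of which Ang entered only through sHA-X. Of the other 41, 8 rose and 3 fell, beside 9.3% and 5.03% of all genes, with a median change of 0.02. Among the rises with the smallest p were Slit3 (2.36 to 5.64 FPKM), a guidance ligand, Sema3a (2.70 to 4.93 FPKM), a neuropilin ligand, Fgfr1 (4.13 to 7.01 FPKM) and the chemokine gene Cxcl12 (78.8 to 119 FPKM). Markers of fibroblasts, cells known to make such ligands, moved beside them: of 10, 7 rose and Cxcl13 fell (137.7 to 100.6 FPKM). Lum, among those that rose, had a PBS mean of 0.796 FPKM and entered the test only through sHA-X. The markers had sums between 344 and 442 FPKM among PBS libraries and between 581 and 795 FPKM among sHA-X libraries. Their part was not tested. Vegfd, the other ligand of VEGFR3, was chosen after its values were seen. It was 1.93, 1.93 and 1.64 FPKM in the PBS libraries and 5.56, 3.69, 4.18 and 2.75 FPKM in those of sHA-X (log2 change 0.80 with SE 0.17, limma adjusted p = 0.018), a call lost without PBS replicate 1 or 2 (up to 0.067).

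The 3 that fell were Esm1, Efnb2 and Itgb3. Esm1, a proteoglycan of tip cells, was 8.08, 6.66 and 10.4 FPKM in PBS spleens, against 5.02, 5.27, 5.19 and 4.45 FPKM in sHA-X spleens (log2 change -0.63 with SE 0.13, limma adjusted p = 0.015). Efnb2, the arterial ephrin, averaged 2.49 ± 0.40 and 1.66 ± 0.09 FPKM (adjusted p = 0.029). Its receptor gene Ephb4, a venous marker, averaged 6.23 ± 0.59 and 7.63 ± 0.62 FPKM and did not pass (adjusted p = 0.078). The integrin gene Itgb3, also a platelet gene, fell from 28.6 to 19.2 FPKM. The Notch receptor genes Notch1 (7.89 and 8.46 FPKM) and Notch4 (2.03 and 1.67 FPKM) and the Notch target Hey1 (1.84 and 1.54 FPKM) did not pass. Leaving out PBS replicate 1 ended the calls of Esm1 and Cxcl12 (adjusted p = 0.059 and 0.051), and leaving out any library other than PBS replicate 2 ended that of Efnb2 (up to 0.092). Efnb2 also did not pass without both second libraries. Of the list, 4 rose without PBS replicate 1 or without PBS replicate 2 and 5 without sHA-X replicate 4, and 1 fell without PBS replicate 1.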

How the data were processed

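RNA of mouse spleen was sequenced in 3 PBS and 4 sHA-X libraries. The authors deposited 1 table of normalised values per gene, taken as FPKM (fragments scaled to gene length and library size) from the values themselves, since its header names no unit. A gene's values were taken as whole multiples of a step, and the smallest whole reads that fitted within 0.05 reads were used. Such reads were found for the 16889 genes that at least 2 libraries contained. They are known up to a common factor, and for genes in few libraries a fit is easily met by chance. Tools named in the submitters' processing notes, without their roles, are HISAT2, HTSeq, fastp, R 3.2.0 and DESeq2, and the build named there is mm10. No source says whether counting used strand, and 16 of the 36 genes overlap another gene, whose reads could then be mixed with theirs. No column was left out.

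limma 3.58.1 in R 4.3.3 (trend, robust) was fitted to log2(FPKM + 1) with the group as the only term, for 11920 genes with a mean of at least 1 FPKM. The pseudocount understates changes of low genes. P-values were adjusted by Benjamini-Hochberg over these genes, and the test was tested on simulated data. The members, the other gene lists and the marker lists were chosen with earlier results of these data known. All members are named. Of each list of other genes, up to 6 called genes with the smallest p are named, and 9 genes whatever their values (Stab2, Lyve1, Cldn5, Notch1, Notch4, Hey1, Esm1, Efnb2, Ephb4). There were 16 alternative fits. The pseudocount, the filter, the scaling, the variance model, voom on recovered reads, a replicate block and left-out libraries were varied. Promoters come from RefSeq on GRCm38.p6, with an entry for 22 of the 36 members. Reads per member per library ran from 10 to 7844.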

Additional observations from a re-analysis of the deposited data

Results flagged for a closer look

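In 4 of 63 groups of 4 libraries checked, 1 sHA-X library stood apart from the other 3 by Dixon's ratio. Chance gives about 1 in 20 groups. Apln was 1.42 FPKM in sHA-X replicate 1, against 0.358 to 0.450 FPKM in the other 3. Podoplanin (Pdpn), a lymphatic and fibroblast marker named here after its values were seen, was 8.04 FPKM in the same library, against 3.32 to 3.80 FPKM. Klf2 was 77.7 FPKM in sHA-X replicate 4, against 96.6 to 97.8 FPKM. Icam2 was 25.3 FPKM in sHA-X replicate 2, against 21.7 to 22.3 FPKM.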

How the results depend on the processing

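Clec4g, Stab1 and Aplnr kept their direction and their call in all 16 alternatives. Over all genes, leaving out 1 library gave 488 to 1263 higher and 228 to 637 lower genes, and for the members 3 to 4 higher and 1 to 4 lower. Quantile normalization gave 976 lower genes in all. Leaving out both second libraries gave 492 higher and 330 lower. The cause was not tested. Same-numbered libraries deviated from their group means with correlations of 0.15, -0.21 and -0.29, so the numbers were not taken to pair the samples. With a replicate block, which drops sHA-X replicate 4, 276 genes rose and 72 fell, of the members 2 and 1, and only replicate 1 correlated best with its own number. The other endothelial genes that rose numbered 6, and 2 without the filter or with quantile normalization, 1 without both second libraries and 0 with the block, where 0 also fell. The other sinusoidal genes that rose, Lyve1 included, numbered 5, and 3 with quantile normalization and 2 without both second libraries or with the block. The other pathway genes numbered 8 higher and 3 lower, and 2 and 1 with the block. Changes that turned sign were those of genes not called. They were Sox18 (-0.0047) and Vegfc (-0.011) with quantile normalization, and Eng (0.023) and Robo4 (0.023) with the block. With 1 library left out, the changes crossed 0 within -0.26 to 0.011 for Dll4, -0.098 to 0.040 for Eng, -0.11 to 0.013 for Flt1, -0.056 to 0.15 for Kdr, -0.11 to 0.082 for Pecam1, -0.086 to 0.066 for Robo4, -0.053 to 0.13 for Sox18, -0.066 to 0.15 for Stab2 and -0.010 to 0.17 for Vegfc. Without both second libraries they were Kdr (-0.040), Mmrn2 (-0.016), Sox18 (-0.077), Tek (-0.056), Vegfc (-0.074) and Stab2 (-0.076). Depth limits the lowest genes: Pgf rested on 10 to 29 reads, Apln on 21 to 143 and Emcn on 69 to 95.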

Other observations

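Vessel-wall cells and lymphatic endothelium gave values beside those of the endothelial genes, all chosen after they were seen. Of 9 tested mural markers, Pdgfrb, the receptor that recruits pericytes, and Rgs5, a pericyte regulator of G-protein signalling, rose (adjusted p = 0.049 and 0.0064 by limma). Pdgfrb averaged 7.78 FPKM in the PBS libraries and 9.76 FPKM in those of sHA-X, and Rgs5 2.94 and 4.28 FPKM. The other 7 mural markers did not pass. Of these, Notch3 and Des had negative log2 changes (-0.27 and -0.07), and the rest had positive ones. Whether the calls of Pdgfrb and Rgs5 hold with a library left out was not tested. Of the 5 lymphatic markers with a PBS mean of at least 1 FPKM, Flt4 and Pdpn rose, and Prox1, Reln and Ccl21a did not pass. Ccl21a averaged 247 FPKM in the PBS libraries and 239 FPKM in those of sHA-X, and Reln 1.45 and 1.18 FPKM (adjusted p = 0.85 and 0.56 by limma). Lyve1, also on the list, entered the test only through its sHA-X libraries. Prox1, the transcription factor that sets lymphatic identity, was 1.52, 1.27 and 1.91 FPKM in the PBS libraries and 1.92, 1.94, 1.60 and 1.81 FPKM in the sHA-X libraries (log2 change 0.14, 95% interval -0.09 to 0.37, adjusted p = 0.41 by limma). Pdpn no longer passed when PBS replicate 1 or 2 was left out (p up to 0.056 after adjustment by limma), nor without both second libraries (0.101).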
